A study of Rattus norvegicus with 18 samples.

Results

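Tenascins and periostin are secreted matricellular proteins, which sit in the extracellular matrix and signal to cells without bearing much load themselves. The set named for study holds 4 gene symbols, the tenascins Tnn, Tnc and Tnxb and the periostin gene Postn. They were chosen by name with the differences between dystrophic and wild-type levels at 9 months already known, so those differences are given as a description without a test. Of the 4 symbols 3 have a row among the 30560 entries of the deposited tables, Tnn (ENSRNOG00000002548), Tnc (ENSRNOG00000058645) and Postn (ENSRNOG00000012660). Tnxb is not analysed here.

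The 18 libraries were made from RNA of the tibialis anterior, the fast muscle at the front of the rat's shin. Wild type (WT) is represented at 3, 9 and 18 months by 3 libraries each, and DMD, the genotype modelling Duchenne muscular dystrophy, by 3 libraries of 9 months. A second dystrophic genotype, p16-null DMD, has 6 libraries, also of 9 months. Both dystrophic groups share the DMD genotype, and neither the alleles nor the strain are described in the labels. Whether replicates are different animals is not spelled out, so p-values measure the spread between libraries, which can be technical in part.

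Tenascin-C is scarce in resting adult muscle, is kept at the myotendinous junction, and is made again after injury or stretch. Tenascin-W, the product of Tnn, is best known from bone, periosteum and the stroma of tumours. Periostin is made by activated fibroblasts, binds collagen and fibronectin and helps to cross-link scar collagen, and both it and the tenascins bind integrins on nearby cells.

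Libraries held 9.61 M to 21.99 M estimated counts, the highest total being that of p16-null DMD replicate 4. Levels are given as CPM, counts scaled for library size by TMM (trimmed mean of M values, which evens out differences in library make-up) over all 18 libraries, or as deposited TPM (transcript abundance corrected for transcript length) where genes are compared with each other. Dmd, the dystrophin gene, ran from 91.2 to 208 CPM over the 9 WT libraries and from 30.9 to 54.2 CPM over the 9 dystrophic ones. Cdkn2a, which encodes p16, was at 10.1 to 15.3 CPM in the libraries labelled p16-null, and gene counts pool its p16 and Arf transcripts, so they cannot check that label. Fibre markers summed to 82977 to 160349 CPM in WT and 34137 to 68314 CPM in dystrophic muscle. Of a list of 13 bone and cartilage markers, Matn1 was at 0 in every group and Bglap in all but the p16-null group. Ibsp and Phex were at 0 only in WT at 9 months, and Col10a1 only in WT at 3 months.

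Tnn was all but absent from WT muscle and clearly present in every dystrophic library. It had 0 counts in each of the 3 WT libraries of 9 months, 0, 1 and 1 counts at 3 months, and 4, 2 and 1 counts at 18 months. In DMD replicates 1 to 3 it had 139, 381 and 225 counts, or 9.80, 20.5 and 14.4 CPM. The libraries labelled p16-null DMD held a lowest level of 18.6, a median of 21.03 and a highest of 43.2 CPM. Each dystrophic library lay well above each of the 9 WT libraries, and the DMD and p16-null ranges overlapped.

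Against WT of the same age, Tnn was at least 153-fold higher in DMD and at least 269-fold higher in p16-null DMD muscle, set against a floor of 3 counts over the WT group. Leaving out either of 2 WT libraries lowered the bounds by over 1.5 times. On the log2 scale they were 7.26 and 8.07 with all libraries, 6.56 and 7.37 without WT replicate 1, and 6.604 and 7.41 without WT replicate 3. Against the 2 counts of WT at 3 months it was 248 times higher in DMD (95% counting interval 68.5 to 2054). Against the 7 counts at 18 months the ratio was 72.2 (34.8 to 180.1). These bounds and intervals cover counting error only, and the contrast with WT at 9 months is one by which the genes were chosen, so it carries no test.

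Tnc was present in all 18 libraries and higher in dystrophic muscle, with wide spread. In WT replicates 1 to 3 of 9 months it stood at 20.7, 44.8 and 24.1 CPM. At 3 months it was at 30.8, 22.5 and 9.33 CPM, and at 18 months at 20.2, 20.2 and 19.7 CPM, so the WT ages overlapped.

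DMD replicates 1 to 3 had 87.9, 82.0 and 155 CPM of Tnc, each above all WT libraries. The p16-null libraries spanned a lowest of 40.6, a median of 78.8 and a highest of 209 CPM. Replicate 3 of that group, at 40.6 CPM, lay below WT replicate 2 of 9 months, so these 2 groups overlapped on the CPM scale. By TPM they did not, with 11.9 to 53.2 in p16-null DMD and 3.16 to 6.63 in WT.

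The Tnc level of p16-null DMD replicate 5 was 209 CPM, more than any other library in the study. The group mean was 94.7 ± 58.3 CPM (SD, n = 6) with it and 71.9 ± 18.6 CPM (n = 5) without it. In that library the summed level of 9 tendon markers, 1218 CPM, lay within the group's range of 1007 to 1455 CPM, and that of fibroblast markers, 8205 CPM, within 6329 to 12315 CPM. Fibre markers were at 68314 CPM, the top of their range in the group. So were smooth muscle and pericyte markers (4692 CPM) and bone and cartilage markers (35.7 CPM). Macrophage markers, at 3022 CPM, lay within 1600 to 4515 CPM, and Schwann cell markers, at 265 CPM, within 225 to 487 CPM. The part of any of these in the Tnc level was not tested.

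Postn was the most abundant of the 3 in dystrophic muscle and the steadiest in DMD. WT replicates 1 to 3 of 9 months had 28.3, 19.2 and 44.8 CPM. WT muscle of 3 months had 121, 80.4 and 56.2 CPM, and WT muscle of 18 months 88.9, 70.3 and 46.2 CPM. All 3 WT libraries of 9 months were thus below all 6 of the other ages on this scale, while by TPM WT replicate 3 of 9 months (17.1) passed replicate 3 of 3 months (16.8).

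In DMD replicates 1 to 3 Postn reached 378, 325 and 348 CPM. In p16-null DMD the lowest, median and highest levels were 302, 418 and 557 CPM. Every dystrophic library was above every WT library of any age. The SD was 7.52% of the mean in DMD, against 37.6% for Tnc and 36.0% for Tnn in the same libraries.

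**Figure D1:**
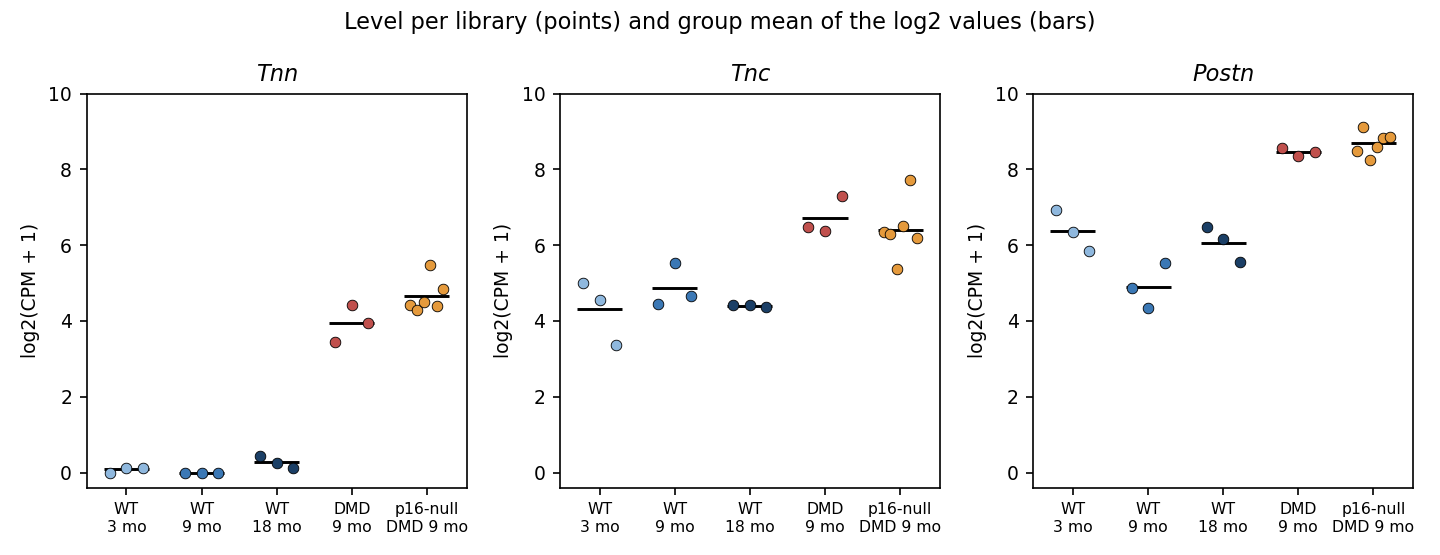
Each point is a library, as log2(CPM + 1) on the vertical axis, for Tnn, Tnc and Postn in the 5 groups on the horizontal axis, and each bar is the group mean of the log2 values. Tnn lies near 0 in WT of all ages, Postn is lower in WT at 9 months than at 3 or 18 months, and 1 p16-null library stands at 209 CPM of Tnc.

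Which WT age served as reference changed the size and the order of the differences. As a ratio of group means, Postn in DMD was 11.4 times its WT level at 9 months, 4.08 times that at 3 months and 5.12 times that at 18 months. For Tnc the same ratios were 3.63, 5.19 and 5.40. In DMD, Postn thus showed a larger ratio than Tnc against WT of 9 months and a slightly smaller one against the other ages. In p16-null DMD the ratios were 13.6, 4.86 and 6.11 for Postn and 3.17, 4.53 and 4.72 for Tnc, so there the ratio of Postn was the larger at each age. References of another age differ from the dystrophic groups in age as well as genotype, and the effects of the 2 cannot be told apart.

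Fitted with edgeR over the 12 libraries of 9 months, the log2 fold change in DMD against WT was 1.86 ± 0.47 (SE) for Tnc and 3.502 ± 0.29 for Postn. In p16-null DMD against WT it was 1.66 ± 0.43 and 3.76 ± 0.28, with the same WT libraries in both contrasts. For comparison, 48.3% of the 14801 genes tested passed an adjusted p under 0.05 in DMD against WT, of which 26.4% of genes higher and 21.8% lower. In p16-null DMD against WT 50.2% passed, 27.5% higher and 22.7% lower. The median gene stood at 0.11 in each. Scaled by library totals in place of TMM, the median gene in DMD against WT stood at 0.76, Tnc at 2.51 and Postn at 4.14. By TMM 54.8% of the genes called were higher, and by totals 86.1%. In bulk muscle, more cells of a type and more RNA per cell cannot be told apart.

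Compared per transcript length, Postn exceeded Tnc and Tnc exceeded Tnn in every dystrophic library. Mean TPM in DMD was 210.3 ± 32.5 for Postn, 29.1 ± 13.0 for Tnc and 4.56 ± 1.38 for Tnn (SD, n = 3). In p16-null DMD these were 249 ± 59.95, 25.1 ± 14.4 and 7.40 ± 2.13 (n = 6). The Postn level was 5.06 to 9.71 times that of Tnc in DMD and 4.84 to 15.97 times in p16-null DMD. In WT at 9 months the same ratio ran from 0.970 to 4.21, and at 3 and 18 months from 7.46 to 13.1 and 5.35 to 9.19. WT muscle of 9 months was the group with the lowest ratio, without overlap with the others.

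The remaining tenascin gene in the tables, Tnr, the tenascin of brain and nerve, was nearly silent by counts. It had 0 counts in all 9 WT libraries and at most 7 in DMD and 13 in p16-null DMD libraries. Among the dystrophic libraries 3 had 0 counts of it. By TPM it reached 3.85 in p16-null DMD replicate 6, on 10 counts, and 0.98 in replicate 2, on 5 counts. The former is above the 3.11 TPM of Tnn in DMD replicate 1, but with so few counts these TPM values are uncertain.

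The regions just before the start sites were read for short motifs, since the 3 genes were higher in both dystrophic groups than in WT. That is the difference with which they were chosen. The 250 bases before each start are shown 5′ to 3′ on the gene's strand, from RefSeq on GRCr8, with every match in capitals. The counts were made on another build, mRatBN7.2. They are Tnn at chr13:74919790-74920039 (minus strand), Tnc at chr5:82476132-82476381 (minus strand) and Postn at chr2:140677811-140678060 (plus strand).
Tnn: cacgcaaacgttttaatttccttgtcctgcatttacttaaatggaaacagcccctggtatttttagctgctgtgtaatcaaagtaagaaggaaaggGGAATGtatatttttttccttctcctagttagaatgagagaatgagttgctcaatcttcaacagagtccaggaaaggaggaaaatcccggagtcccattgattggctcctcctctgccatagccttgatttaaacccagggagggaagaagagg
Tnc: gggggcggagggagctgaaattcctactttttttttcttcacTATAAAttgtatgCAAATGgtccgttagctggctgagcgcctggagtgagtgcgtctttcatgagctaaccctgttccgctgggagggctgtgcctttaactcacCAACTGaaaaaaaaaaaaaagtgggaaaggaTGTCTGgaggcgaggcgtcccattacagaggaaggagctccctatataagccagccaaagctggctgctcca
Postn: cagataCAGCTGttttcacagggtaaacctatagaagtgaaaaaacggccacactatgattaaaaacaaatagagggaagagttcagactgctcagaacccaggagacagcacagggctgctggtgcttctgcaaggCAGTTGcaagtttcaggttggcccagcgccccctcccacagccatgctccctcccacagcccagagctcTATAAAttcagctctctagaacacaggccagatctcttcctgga

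Both strands were searched for the TATA box as TATAAA, for the E-box of Twist and related factors as CANNTG, for the AP-1 site as TGANTCA and for the site of TEAD, the partner of YAP, as GGAATG. Runx sites were searched as TGTGGT, Smad sites as CAGACA, and the CArG box of serum response factor by name. No motif of these 7 was found in all 3 windows. Tnn held a single match, GGAATG starting 154 bases before the start, which 12.1% of 33469 rat promoters also hold. Postn held TATAAA at 44 bases, found in 12.9% of promoters, and 2 E-boxes, starting 244 and 113 bases before the start. Tnc held 2 E-boxes at 195 and 103 bases, TATAAA at 208 bases and the reverse complement of CAGACA at 72 bases. E-boxes occur in 65.5% of promoters and CAGACA in 17.2%. The CArG box (1.5% of promoters), TGANTCA (6.34%) and TGTGGT (14.5%) had no match here, and the motifs did not overlap each other. These are letter matches and no evidence of binding. Variants of the letters were not searched, such as the tatataa near the end of the Tnc window, so other TATA boxes may be missed.

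Between the libraries labelled p16-null DMD and those labelled DMD, none of the 3 genes passed. Cdkn2a ran from 10.1 to 15.3 CPM in the former and from 10.6 to 19.5 CPM in the latter, so the contrast rests on the labels. Tnn averaged 14.9 ± 5.37 CPM in DMD and 25.2 ± 9.35 CPM in p16-null DMD (SD, n = 3 and 6). The groups overlapped, with 3 of 6 p16-null libraries above every DMD library. The log2 difference was 0.77 ± 0.29, with a 95% interval of 0.14 to 1.39, an unadjusted p of 0.0209 and an adjusted p of 0.833 (edgeR quasi-likelihood test, Benjamini-Hochberg over 14801 genes). Without p16-null replicate 4, the library with the most Tnn, it was 0.54 (adjusted p = 0.962), and without DMD replicate 2 it was 1.06 (adjusted p = 1).

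Tnc differed by -0.19 ± 0.39 (interval -1.02 to 0.63, edgeR adjusted p = 0.987). Its sign turned without DMD replicate 3, to 0.14 (adjusted p = 0.994), and without p16-null replicate 5 it was -0.59 (adjusted p = 0.998). Postn differed by 0.26 ± 0.23 (interval -0.23 to 0.75, edgeR adjusted p = 0.974), with 4 of 6 p16-null libraries above the highest DMD library. The intervals still allow a rise of Tnn by over 2-fold and a fall of Tnc to the same degree, so these values do not show equal levels. In this comparison 0.00676% of genes passed, 1 of 14801, and 764 had an unadjusted p under 0.05, while DESeq2 called 13. Without DMD replicate 1 edgeR called 85 genes, with none of the 3 among them. The DMD libraries also entered the contrast by which the genes were chosen.

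No correlation between the 3 genes passed a test within the 9 dystrophic libraries. Pearson's r of log2(CPM + 1) was -0.20 for Tnn with Tnc (exact two-sided permutation p = 0.602), 0.07 for Tnn with Postn (p = 0.853) and 0.29 for Tnc with Postn (p = 0.461). Spearman's rho was -0.37, -0.03 and 0.07 (exact permutation p = 0.336, 0.948 and 0.880). No pair passed after Benjamini-Hochberg adjustment over the 3 pairs (adjusted p = 0.853 for each r and 0.948 for each rho). Without the 2 libraries furthest from the median of the first gene, r was -0.51, 0.14 and -0.42 over 7 libraries. In the 6 p16-null libraries alone it was -0.07, -0.19 and 0.47. By TPM the rho of Tnn with Tnc was -0.74 (exact permutation p = 0.0280, adjusted p = 0.0840). The highest Tnn, Tnc and Postn levels fell in 3 different libraries, p16-null replicates 4, 5 and 2.

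**Figure D2:**
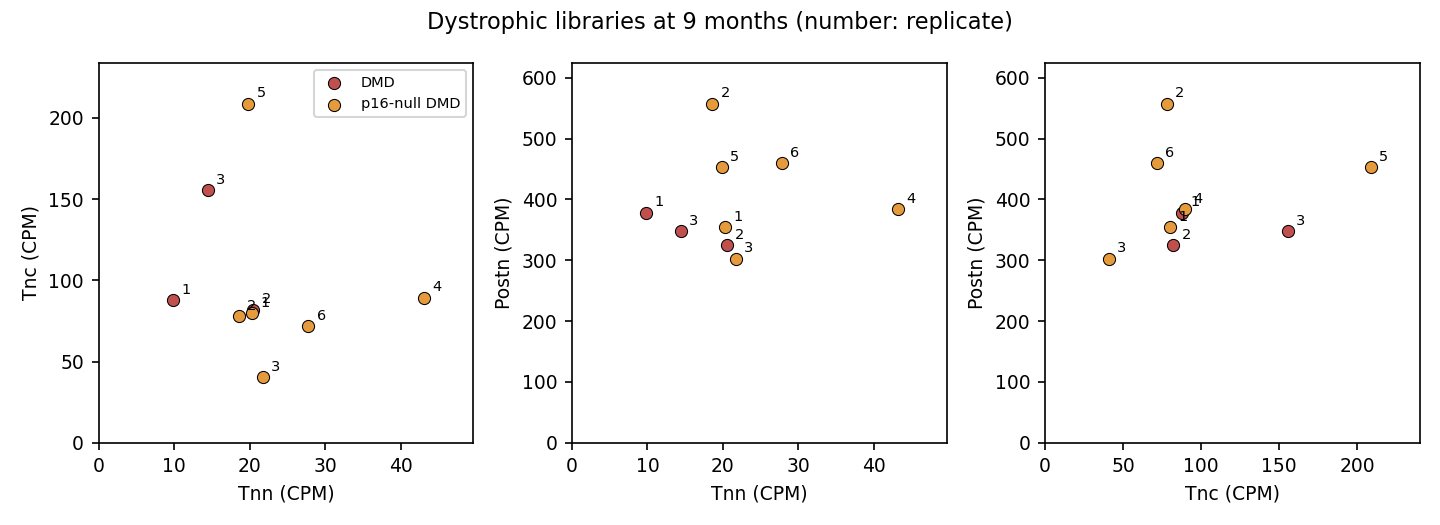
CPM of 1 gene against another in the 9 dystrophic libraries of 9 months, with both axes from 0, DMD in red, p16-null DMD in orange, and the replicate number beside each point. Replicates 4, 5 and 2 of p16-null DMD hold the highest Tnn, Tnc and Postn.

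The WT comparison of 18 with 3 months used libraries outside the contrast by which the genes were chosen, and neither testable gene passed. Tnc was at 20.9 ± 10.8 CPM at 3 months and 20.1 ± 0.299 CPM at 18 months (SD, n = 3 each). Its log2 difference was -0.06 ± 0.30 (interval -0.69 to 0.57, edgeR adjusted p = 0.915). Postn was at 86.0 ± 33.0 and 68.5 ± 21.4 CPM, with a difference of -0.33 ± 0.25 (interval -0.87 to 0.21, edgeR adjusted p = 0.409). With TPM both signs turned, to 0.27 for Tnc and 0.05 for Postn (limma adjusted p = 0.546 and 0.923). Tnn had too few counts to be tested, 7 at 18 months against 2 at 3 months, a ratio of 3.45 with a counting interval of 0.657 to 34.05.

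Several matrix partners, fibrillar collagens among them, did pass the test with age. Of 18 tested partners 7 fell and 2 rose at 18 months (median -0.27, against 0.00319 for all genes), where 19.4% of 13487 genes passed, 9.31% higher and 10.1% lower. By library totals 5 partners fell and 3 rose, and 80.0% of all genes called were higher, against 47.9% by TMM. On that scaling 2609 of the 13487 genes passed as higher and 652 as lower. Named after their values were seen, Col1a1 and Col1a2, the chains of type I collagen, fell by 2.87 ± 0.32 and 2.08 ± 0.29 on the log2 scale (edgeR adjusted p = 2.53e-05 and 0.00020). The proteoglycan gene Bgn rose by 1.14 ± 0.18 (adjusted p = 0.00060). Of 9 tendon markers 4 passed as lower and 1 as higher (median -1.03), and their summed level was 277 to 875 CPM at 3 months and 167 to 326 CPM at 18 months. Of 12 macrophage markers 9 rose (median 0.90), and 2 of 17 fibroblast markers rose and 2 fell. The part of tendon tissue in the matrix values was not tested.

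**Figure D3:**
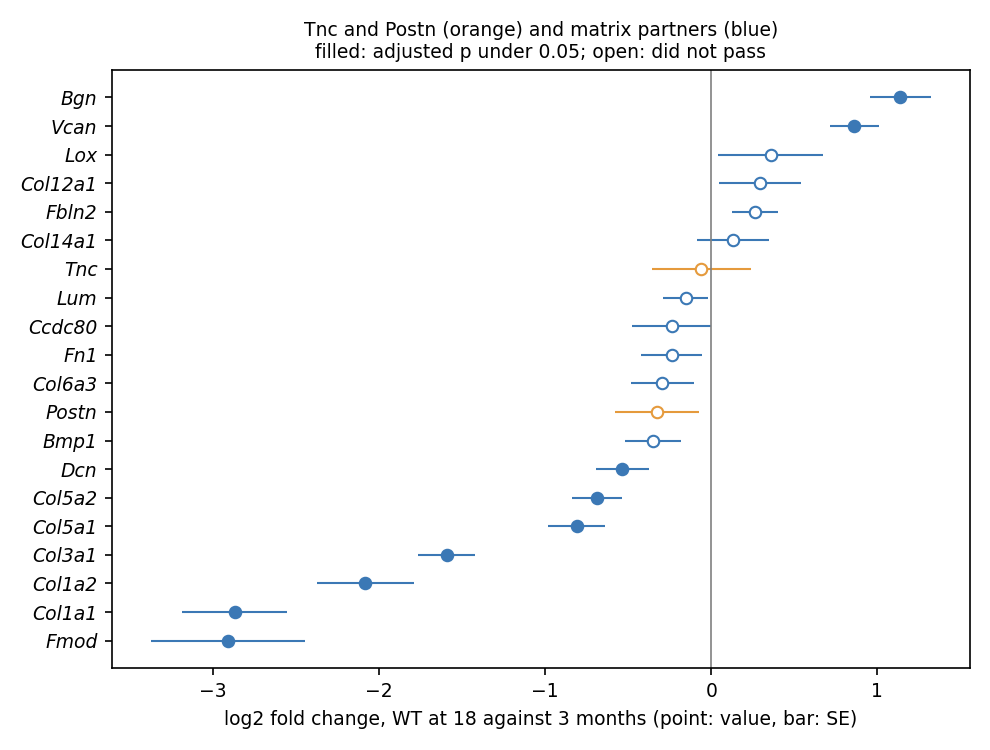
Log2 fold change in WT muscle of 18 against 3 months on the horizontal axis, with bars of 1 SE, for Tnc and Postn in orange and 18 matrix partners in blue, filled where the adjusted p is under 0.05. Tnc (-0.06) and Postn (-0.33) lie near 0 with open points, while Col1a1 (-2.87) and Fmod (-2.91) lie far to the left.

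The molecules with which tenascins and periostin act were then followed in DMD against WT at 9 months, by lists that share some genes. The lists were chosen with earlier results of these data known. Genes were named from them mostly by the smallest p in this same contrast. Their counts and p-values therefore describe the contrast and are no independent test. Beside the background of 48.3% passing, 26.4% higher and 21.8% lower, 17 of 18 matrix partners rose and none fell (median 2.11, against 0.11 for all genes). Bgn, which binds collagen fibrils, went from 56.5 ± 11.4 to 513 ± 78.1 CPM. Col6a3 rose by 2.26 ± 0.21, Col14a1 by 2.77 ± 0.32 and Vcan, a large proteoglycan, by 3.02 ± 0.40 (edgeR adjusted p = 6.35e-07 for Bgn and up to 2.89e-05 for the others). Fmod, named as the single partner that did not pass, was at 0.47 ± 0.49 (adjusted p = 0.451).

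Of 19 other matricellular genes 14 rose and none fell (median 2.06). Ccn5 and Ccn4, of the CCN family, rose by 3.85 ± 0.38 and 2.77 ± 0.29. Tgfbi, the relative of periostin with the same fasciclin repeats, went from 89.3 ± 7.75 to 293 ± 26.1 CPM (1.71 ± 0.19), and Thbs4, a thrombospondin of tendon and muscle attachment, rose by 2.24 ± 0.27. The edgeR adjusted p was at most 1.56e-05 for these 4.

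Of 20 receptor genes 13 rose and 1 fell (median 0.78). The fibronectin receptor chain Itga5 rose by 1.72 ± 0.24 (edgeR adjusted p = 4.73e-05), Itgb1, the common beta chain, by 0.90 ± 0.15 (0.000198) and Anxa2, an annexin that binds tenascin-C, by 1.997 ± 0.22 (7.37e-06). Itgb6, an epithelial integrin chain, fell by 1.11 ± 0.21 on the log2 scale (0.00054), a call lost by library totals (-0.47, adjusted p = 0.0625), where 15 receptors rose and none fell. On that scaling 7691 of the 14801 genes tested passed as higher and 1240 as lower.

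Of 19 genes of upstream signals and regulators 5 rose and 1 fell (median 0.19). That count of risen genes is near the background, in which 26.4% of all genes were higher. Tgfb1, whose product induces both periostin and tenascin-C in fibroblasts, went from 10.5 ± 2.96 to 45.4 ± 14.0 CPM (2.10 ± 0.32, edgeR adjusted p = 8.4e-05). Its receptor gene Tgfbr2 rose by 1.37 ± 0.15 (8.07e-06) and Twist1, a transcription factor of mesenchyme, by 2.46 ± 0.28 (9.83e-06). Smad3, a signal carrier of the TGF-beta receptors, fell by 1.46 ± 0.20 on the log2 scale (4.34e-05). By library totals 12 of 19 rose and 1, Smad3, fell (-0.82), while 7691 of all 14801 genes tested passed as higher and 1240 as lower.

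Of proteases that can cut tenascins or their neighbours, 7 of 10 rose and none fell (median 2.29). Mmp2 went from 134 ± 11.8 to 657 ± 54.3 CPM (2.29 ± 0.19) and Adamts4 from 1.68 ± 0.874 to 53.6 ± 30.1 CPM (4.91 ± 0.65). Mmp14, a membrane-bound protease, and the lysosomal protease gene Ctss rose by 2.31 ± 0.27 and 2.29 ± 0.29. The edgeR adjusted p was at most 2.9e-05 for these 4 genes. In p16-null DMD against DMD no gene of these 5 lists passed.

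**Figure D4:**
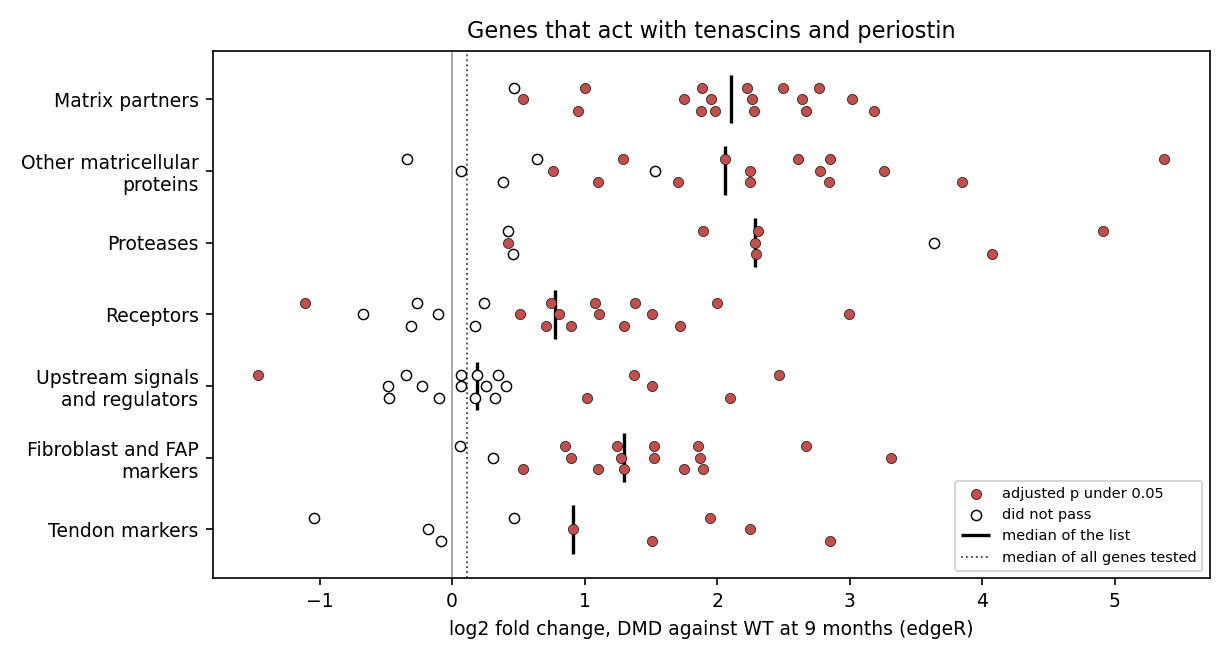
Each point is a gene, placed by its log2 fold change in DMD against WT at 9 months on the horizontal axis, in rows of 7 lists, red where the adjusted p is under 0.05 and open otherwise. Thick bars are list medians, which lie at 2.11 for matrix partners and at 0.19 for upstream signals and regulators, and the dotted line is the median of all genes (0.11).

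Markers of 7 tissues or cell types were read in the same contrast, beside the background of 26.4% higher and 21.8% lower. For counts by library totals the background was 7691 of 14801 genes higher and 1240 lower. Fibroblast and fibro-adipogenic progenitor (FAP) markers rose for 15 of 17 genes and fell for none (median 1.297), with Thy1 at 3.31 ± 0.33, Dpt at 1.87 ± 0.21, Mfap5 at 1.52 ± 0.20 and Pdgfrb at 1.25 ± 0.16. Their summed level ran from 3265 to 3370 CPM in WT at 9 months, 8763 to 10083 CPM in DMD and 6329 to 12315 CPM in p16-null DMD. Of 9 tendon markers none fell and 5 rose (median 0.91). Comp rose by 2.85 ± 0.46 and Tnmd, a membrane protein of tendon cells, by 1.95 ± 0.46. By library totals 5 also rose, while Scx (0.55), Mkx (-0.36), Kera (0.47) and Fmod (1.13) did not pass, beside 0.76 for the median gene. The summed tendon markers went from 317 to 514 CPM in WT at 9 months to a range of 636 to 1475 CPM in DMD. Of 8 bone and cartilage markers 3 rose and 1 fell, with Runx2 at 2.41 ± 0.31 and Alpl at -1.49 ± 0.49 (by library totals 4 rose and none fell). Also among those that rose, Phex had 0 counts in WT and 29 in DMD, and Sp7 had 1 and 46. The summed bone and cartilage levels overlapped (27.6 to 58.8 CPM in WT, 21.4 to 59.4 CPM in DMD). All 12 macrophage markers rose (median 2.65), Fcgr2b by 4.29 ± 0.30 and Lgals3 by 2.83 ± 0.28. All 9 fibre markers fell by TMM (median -1.74) and 7 of them by library totals, with Tnni2, a fast troponin, at -1.74 ± 0.28. Of 10 Schwann cell markers 3 rose, and of 10 smooth muscle and pericyte markers 1 rose and 2 fell, or 5 and 1 by library totals. The part of these cells in the levels of Tnn, Tnc and Postn was not tested.

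The levels were also set against the summed fibroblast markers. Per 100 CPM of those markers, Postn was at 0.935 ± 0.403 CPM in WT at 9 months, 3.705 ± 0.246 in DMD and 5.004 ± 1.29 in p16-null DMD (SD, n = 3, 3 and 6). At 3 and 18 months WT muscle had 1.91 ± 0.291 and 1.82 ± 0.450. Tnc was at 0.8999 ± 0.376, 1.13 ± 0.355 and 1.17 ± 0.753 in the 3 groups of 9 months, which overlapped, and at 0.452 ± 0.155 and 0.541 ± 0.0373 in WT at 3 and 18 months. Tnn was at 0.160 ± 0.0674 in DMD and 0.309 ± 0.149 in p16-null DMD. These ratios describe the contrast by which the genes were chosen, and with 0 to 4 counts of Tnn in each WT library its ratio there could only be near 0.

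By pattern over the 18 libraries, the gene most like Tnn among 12876 was Cdkn2a. Likeness was the root mean square difference between log2(CPM + 1) profiles after each gene's own mean was subtracted, and for Cdkn2a it was 0.48. Lrrc15, a membrane protein of activated fibroblasts, followed at 0.64, then Clec2dl1 (0.75), Ptprv (0.76) and S100a4 (0.79). Cdkn2a averaged 14.3 CPM in DMD and 12.3 CPM in p16-null DMD, and no more than 0.190 CPM in any WT group. The profiles of such genes rest mostly on the gap between WT and dystrophic libraries, which the choice of Tnn had used.

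Nearest to Postn were Cthrc1 (0.42), Igsf10 (0.47), Sfrp4 (0.47), a secreted Wnt modulator, Ccdc80 (0.48) and Aebp1 (0.49), a collagen-binding protein. All 5 had their lowest group mean in WT at 9 months, as Postn did, with Ccdc80 at 148, 95.7 and 126 CPM in WT of 3, 9 and 18 months and 540.0 CPM in DMD. They were picked over libraries that include those of WT at 9 months, so this shared low group follows in part from the choice. Nearest to Tnc were Il1r2 (0.43), a decoy receptor for interleukin-1, Tiam1 (0.46), Fcgr2a (0.47), Il18rap (0.48) and the lectin gene Clec10a (0.48). Il1r2 averaged 0.280, 0.646 and 0.404 CPM in WT of 3, 9 and 18 months and 6.32 CPM in DMD. At such low levels the 1 added to CPM narrows log2 differences, so its place depends on that setting. The 3 lists of 5 shared no gene. Among themselves the 3 stood at 0.96 for Tnc with Postn, 0.98 for Tnn with Postn and 1.38 for Tnn with Tnc. The genes named are the 5 nearest of 12876 to each member, so a given pair would nearly always differ more. The 3 were not ranked among all genes.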

How the data were processed

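Per the labels' protocols, total RNA of frozen muscle sections (Qiagen RNeasy) went into Illumina TruSeq RNA libraries. The authors deposited estimated counts per gene, fractional in part, and TPM values, which correct for transcript length. The submitters' processing notes name Trimmomatic, FastQC, STAR 2.7.10b, RSEM 1.3.3 and the build mRatBN7.2, without their roles. Annotation release and strandedness: not given in the sources used here. Without known strand, reads of Tnn and Tnc cannot be told from those of the lncRNA that overlaps each in RefSeq (GRCr8). Postn has no such overlap.

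Counts were rounded (4.50% were not whole). Genes with few counts were removed with filterByExpr, and libraries were scaled by TMM. The 12 libraries of 9 months shared 1 edgeR 4.0.16 quasi-likelihood fit (14801 genes), and WT at 3 and 18 months another (13487 genes), in R 4.3.3. P-values were adjusted by Benjamini-Hochberg over all genes tested, and under 0.05 counts as passed. WT libraries of 9 months had TMM factors of 0.687 to 0.761 and dystrophic ones of 0.998 to 1.19, so scaling bears on directions. An SE is the size of the log2 fold change over the square root of its F statistic. Replicates differed by more than counting error (chi-square per degree of freedom 12.5 to 83.7 over 27 pairs). Steps were tested on simulated data in which few genes differed, raised or lowered at random. Such data cannot check the scaling in DMD against WT, where 48.3% of genes passed.

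Members and lists were chosen with earlier results of these data known. Named genes are the 3 members, up to 4 genes per list with the smallest p in DMD against WT, and the 5 most alike to each member. Some that the rule gives are left out for space. Fmod, and Bgn, Col1a1 and Col1a2 with age, were named after their values were seen. Where a symbol had several entries, that with the highest mean count was used. Alternatives were DESeq2 1.42.0, RLE scaling, library totals, limma 3.58.1 on log2 TPM (pseudocount 1 or 0.1), other filters and sets of libraries, a replicate block, and each library left out. A list of chromosomal neighbours of Tnxb was not used. The relative transcript length was added after results were seen.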

Additional observations from a re-analysis of the deposited data

Results flagged for a closer look

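The Tnc level of p16-null DMD replicate 5 stood apart from the other 5 libraries of its group, at 209 against a next highest of 89.3 CPM. The gap was 0.711 of the group's range, above the critical value of 0.625 for 6 samples, and 0.741 by TPM. The Tnn level of p16-null DMD replicate 4, the deepest library, stood apart as well, at 43.2 against 27.8 CPM. Its gap was 0.626 of the range, barely past 0.625, and by TPM it was 0.346, which does not pass. Such a gap arises by chance in about 1 of 20 groups of normally distributed values, and 3 genes were looked at in this way. The rule was applied to CPM and TPM, which stretch high levels more than the log2 scale of the fits. As log2(CPM + 1), the highest, next and lowest p16-null libraries stood at 7.71, 6.50 and 5.38 for Tnc. For Tnn they stood at 5.46, 4.85 and 4.29. Whether either library stands apart on that scale was not tested.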

How the results depend on the processing

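Of 148 values recomputed under alternatives other than a left-out library, 126 kept their direction and side of the threshold, or stayed within the spread, 13 moved and 9 changed sign. In DMD against WT, library totals gave 2.51 for Tnc, 4.14 for Postn and 7.90 for the log2 bound of Tnn. TPM gave 4.21 for Postn (pseudocount 1), and 2.61 and 4.33 for Tnc and Postn (pseudocount 0.1). In p16-null DMD against WT, Postn was at 4.36 by totals and 4.43 or 4.55 by TPM, and the Tnn bound at 8.67 by totals. Signs turned for Tnc at 18 against 3 months by totals (0.15), TPM (0.27 and 0.39) and the replicate block (0.0685), for Postn there by TPM (0.05 with either pseudocount, 0.0479 and 0.0511), and for r of Tnn with Postn by TPM (-0.10), by totals (-0.0414) and in p16-null libraries alone (-0.19). None of these passed, and the cause was not tested.

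Genes called in p16-null DMD against DMD were 13 by DESeq2 and 0 with a replicate block (764 had an unadjusted p under 0.05 in the fit without it). At 18 against 3 months they were 1742 in a fit of all 18 libraries. With the replicate block it was 2906 there, against 2622 in the main fit, and the edgeR adjusted p of Postn was 0.0806, against 0.409. Deviations of same-numbered libraries correlated at -0.225 to 0.0886 at 9 months and 0.0273 to 0.152 at 3 and 18 months. Libraries of different numbers were not compared, so these values cannot show whether the numbers pair the libraries. With the replicate block Tnc in p16-null DMD was at 1.18 against WT and -0.74 against DMD, and no member passed in a tested contrast.

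Leaving out a library in turn gave ranges as follows. In DMD against WT they were 1.52 to 2.27 for Tnc, 3.26 to 3.88 for Postn, 6.56 to 7.44 for the Tnn bound and 6052 to 6703 genes called. In p16-null DMD against WT they were 1.27 to 2.07, 3.52 to 4.13, 7.37 to 8.14 and 6364 to 7388. In p16-null DMD against DMD they were 0.54 to 1.06 for Tnn, -0.59 to 0.14 for Tnc, 0.15 to 0.34 for Postn and 1 to 85 genes, the 85 without DMD replicate 1. It was 2 without DMD replicate 3 or p16-null replicate 2. At 18 against 3 months they were -0.42 to 0.34 for Tnc, -0.57 to 0.0109 for Postn and 1696 to 2415 genes, with both upper values without WT replicate 1 of 3 months. The Tnn bound has no value by DESeq2 or limma, where it would depend on a pseudocount or prior. With 0 to 4 counts a library, Tnn differences among WT ages were not detectable at this depth.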

Other observations

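The count and TPM tables together hold the average transcript length that the submitters' software assigned to a gene, since counts divided by TPM scale with it. Set to 100 at each gene's median, and relative to 4290 well-measured genes, the length for Tnc spanned 100.42 to 101.84 in WT and 100.65 to 101.1 in DMD muscle of 9 months, which overlap. The p16-null libraries spanned 95.66 to 101.38. Young WT muscle of 3 months spanned 93.26 to 97.37, and old WT muscle of 18 months 92.71 to 103.84. From lowest to highest library, Tnn varied by 13.7 on this scale (9 dystrophic libraries), Tnc by 11.1 and Postn by 2.03 (18 libraries each), while the median well-measured gene varied by 3.22. Those genes had at least 200 counts and 5 TPM in every library, whereas members were read in libraries with at least 50 counts, so the spreads are not on equal terms.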
